A study of Mus musculus with 12 samples.

Results

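The genes described here are p53 itself (Trp53) and a set of its transcriptional targets that mediate cell death or feed back on p53: Mdm2, Phlda3, Ccng1, Trp53inp1, Bax, Bbc3, Pmaip1, Zmat3 and Perp. They were chosen by name, 10 genes in all, and each is represented by its brightest probe, the one whose mean over all arrays is highest. Of these, 8 have a probe in the annotation used here, among 19057 genes with a probe assigned to a single symbol. Trp53 and Bax were not analysed here.

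RNA was profiled on 12 Illumina MouseWG-6 v2.0 BeadChips, 4 in each of 3 groups. The NdpKO;Ptch+/- medulloblastomas (MBs) came from male Ndp-/y;Ptch+/- compound mutants on a mixed strain background, in which a lacZ-containing cassette disrupts the X-linked Ndp gene, the gene for the secreted ligand Norrin. The Ptch+/- MBs came from mice with a single functional Ptch allele, labelled C57Bl/6. Both tumor groups therefore share the heterozygous Ptch mutation, which predisposes to Sonic hedgehog medulloblastoma. The controls were wild-type granule neuron progenitors (GNPs), also labelled C57Bl/6, from cerebella at postnatal day 6. Tumors were dissected from symptomatic mice whose ages are not in the labels, whereas GNPs were purified on a Percoll gradient with pre-plating, so tissue, age and purification differ together in any comparison of a tumor with GNPs and cannot be told apart. The labelled strain background differs between the tumor groups together with Ndp, although by the series text the controls and the compound mutants belonged to one breeding cohort. The authors state that compound mutants were always male and that other controls were of both sexes. Sex may therefore also differ together with Ndp, and it was not compared here. In bulk tissue, fewer cells of a type and less RNA per cell cannot be told apart. The labels do not state that each array is a separate mouse, so p-values measure only the spread between these arrays.

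p53 is a transcription factor that is kept scarce in unstressed cells by MDM2, a ubiquitin ligase that p53 itself induces, and that accumulates after DNA damage or oncogenic signaling. Its targets include brakes on p53 (Mdm2, Ccng1), an inhibitor of AKT (Phlda3), amplifiers and RNA regulators of the response (Trp53inp1, Zmat3) and genes of the mitochondrial death pathway (Bax and the BH3-only genes Bbc3, encoding PUMA, and Pmaip1, encoding NOXA). In the cerebellum, p53 is known to restrain the growth of Sonic hedgehog tumors in Ptch+/- mice. The arrays measure RNA and so give no level of p53 protein.

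The proximal promoters are shown first for Mdm2, Ccng1 and Phlda3, the 3 genes called in Ptch+/- MBs against GNPs, because p53 acts through sites in the promoters and introns of its targets. Each window runs from 250 bases before to 50 bases after the gene start, 5′ to 3′ on the strand of the gene, from RefSeq on GRCm38.p6. Mdm2 is at chr10:117710709-117711008 on the minus strand, Ccng1 at chr11:40755237-40755536 on the minus strand, and Phlda3 at chr1:135765835-135766134 on the plus strand. Capitals mark matches to the p53 half-site consensus, which reads the same on both strands.
Mdm2: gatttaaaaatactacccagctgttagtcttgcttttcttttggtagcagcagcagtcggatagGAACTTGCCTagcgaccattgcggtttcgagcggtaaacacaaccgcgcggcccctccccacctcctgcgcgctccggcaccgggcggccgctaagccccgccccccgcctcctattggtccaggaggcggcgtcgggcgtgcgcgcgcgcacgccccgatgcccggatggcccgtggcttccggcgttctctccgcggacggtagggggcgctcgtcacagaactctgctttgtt
Ccng1: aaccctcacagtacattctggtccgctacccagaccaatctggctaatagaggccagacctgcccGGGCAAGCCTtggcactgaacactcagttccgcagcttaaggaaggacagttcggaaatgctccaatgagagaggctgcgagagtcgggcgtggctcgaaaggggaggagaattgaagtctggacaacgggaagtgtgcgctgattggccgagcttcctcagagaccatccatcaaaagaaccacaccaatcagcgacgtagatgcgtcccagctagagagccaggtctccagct
Phlda3: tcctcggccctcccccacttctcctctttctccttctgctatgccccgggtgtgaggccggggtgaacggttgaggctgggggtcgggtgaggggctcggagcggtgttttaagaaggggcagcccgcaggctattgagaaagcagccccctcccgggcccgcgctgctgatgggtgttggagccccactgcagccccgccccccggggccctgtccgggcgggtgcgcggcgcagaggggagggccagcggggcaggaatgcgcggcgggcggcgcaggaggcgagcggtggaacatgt
The Mdm2 window holds 1 half-site, which begins 186 bases before the start, and the Ccng1 window holds 1, which begins 185 bases before it. The Phlda3 window holds 0, which says only that a complete match is not in this stretch. Its last bases, gaacatgt, fit the start of the consensus, and the window ends before a match could be completed. A half-site occurs in 2745 of 32851 mouse promoter windows, or 8.36%, and a match is not evidence of binding.

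Signal is given as the deposited normalized log2 value, on which the whole data set runs from 4.09 to 16 and every array has a median of 4.15. Values under 4.5 were treated as not above background, and between 31.8% and 32.5% of probes on an array were at or above that limit. Arrays of a group correlated at r = 0.984 or higher across probes. A gene was called changed at an adjusted p under 0.05 in limma's moderated test, adjusted over all 45281 probes. Of the 8 measured genes, 6 were above background on at least 1 tumor array, and Pmaip1 was above it only on GNP arrays. Perp, which encodes a membrane protein linked to p53-dependent death, read between 4.11 and 4.13 on all 12 arrays and is not discussed further.

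Between the tumor groups, 1 of the 8 genes was lower in NdpKO;Ptch+/- MBs (Phlda3) and 0 were higher, against 1.26% of all genes called lower and 0.808% called higher. The remaining 7 did not pass limma's test, and Mdm2 and Bbc3 were the 2 of them with an unadjusted p under 0.05. Against GNPs, Ptch+/- MBs had 2 of the 8 genes higher (Phlda3 and Ccng1) and 1 lower (Mdm2), where 10.3% of all genes were called higher and 10.9% lower. NdpKO;Ptch+/- MBs had 0 higher and 2 lower than GNPs (Mdm2 and Bbc3), with 7.69% of all genes called higher and 7.98% lower. Among genes with a mean above background in a compared group, 4.24% were called in either direction between tumors. That share was 37.9% for Ptch+/- MBs against GNPs and 28.9% for NdpKO;Ptch+/- MBs against GNPs. In the same order, 12.5%, 37.5% and 25% of all 8 genes were called. Only 6, 7 and 7 of the 8 were above background in this sense, so these percentages are not on the same basis. The last 2 comparisons share the same 4 GNP arrays and are not independent of each other. The median log2 difference of the 8 genes was -0.14 between tumors, 0.06 for Ptch+/- MBs against GNPs and 0.08 for NdpKO;Ptch+/- MBs against GNPs, with a median of 0 for all genes in each case.

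**Figure D1:**
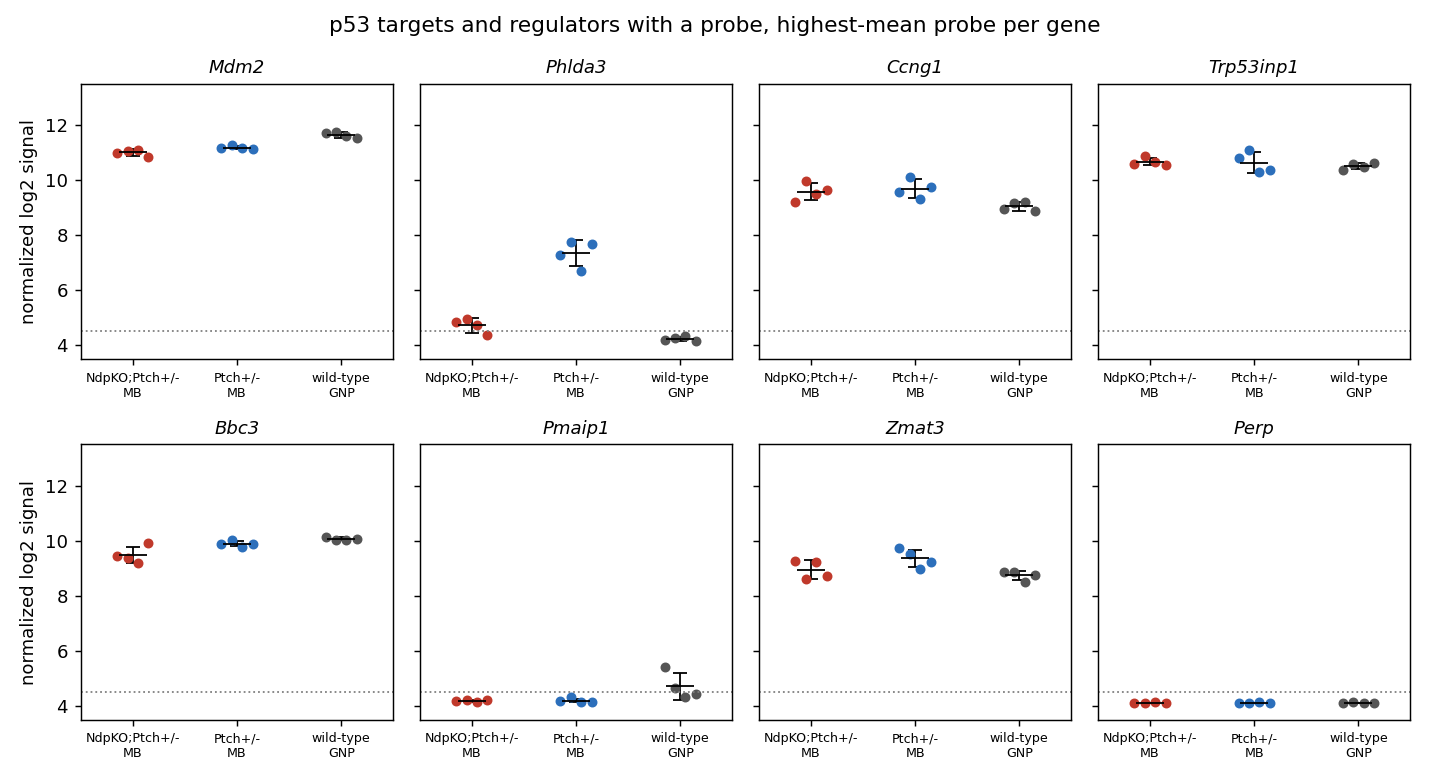
Normalized log2 signal (y axis, same scale in every panel) of the 8 measured p53 genes on each array of the 3 groups, with the mean and SD (n = 4 per group); the dotted line is the background limit of 4.5. Phlda3 stands clear of background only in Ptch+/- MBs, where it lies between 6.71 and 7.74, Mdm2 is highest in GNPs, and Perp is at background throughout.

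The feedback gene Mdm2 was well above background on every array. It read 10.98, 11.06, 11.10 and 10.85 in NdpKO;Ptch+/- MBs, 11.18, 11.27, 11.15 and 11.12 in Ptch+/- MBs, and 11.71, 11.74, 11.59 and 11.52 in GNPs. No 2 groups overlapped, and the order was GNP, then Ptch+/- MB, then NdpKO;Ptch+/- MB. Mdm2 was 1.38-fold lower in Ptch+/- MBs than in GNPs (log2 difference -0.46, SE 0.06, limma adjusted p = 0.000931). In NdpKO;Ptch+/- MBs it was 1.56-fold lower than in GNPs (-0.64, SE 0.06, limma adjusted p = 0.000177). The difference between the tumor groups was -0.18 (95% interval -0.32 to -0.04) and did not pass (limma adjusted p = 0.244), so the 2 lower neighbours in the order were not separated by the test. A second Mdm2 probe differed in the same directions, by -0.36 (limma adjusted p = 0.0409) and -0.57 (0.00624) from GNPs and by -0.21 (0.449) between tumors, and the third was at background.

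Overlap of the groups' ranges was also counted, which does not depend on the fit. Between tumors 2 of the 8 genes, Mdm2 and Phlda3, lay wholly lower in NdpKO;Ptch+/- MBs and 0 lay wholly higher, where 4.72% and 4.68% of all genes did so. In Ptch+/- MBs, Phlda3, Ccng1 and Zmat3 (3 of 8) lay wholly above GNPs and Mdm2 and Pmaip1 (2 of 8) wholly below, with 14.2% and 14.6% of all genes. In NdpKO;Ptch+/- MBs, Phlda3 and Ccng1 (2 of 8) lay above GNPs and Mdm2, Bbc3 and Pmaip1 (3 of 8) below, with 12.7% and 12.3% of all genes. Some of these gaps lie between values under the limit of 4.5. For Phlda3 the lowest NdpKO;Ptch+/- MB read 4.36 and the highest GNP array 4.34. For Pmaip1 the highest NdpKO;Ptch+/- and Ptch+/- MBs read 4.22 and 4.31, and the lowest GNP array 4.33.

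Phlda3, whose PH-domain-only protein competes with AKT for membrane lipids, showed the largest differences of the 8 genes between tumors and between Ptch+/- MBs and GNPs. Its signal was 7.28, 7.74, 6.71 and 7.67 in Ptch+/- MBs. In NdpKO;Ptch+/- MBs it was 4.86, 4.95, 4.72 and 4.36, with 3 of 4 arrays above background, and in GNPs it was 4.18, 4.25, 4.34 and 4.17, all at background. Every Ptch+/- MB was thus above every array of the other groups. Phlda3 was 6.17-fold lower in NdpKO;Ptch+/- than in Ptch+/- MBs (log2 difference -2.63, SE 0.21, 95% interval -3.11 to -2.15, limma adjusted p = 0.00081). Against GNPs, where only a bound can be given, it was at least 7.2-fold higher in Ptch+/- MBs (limma adjusted p = 1.32e-05). NdpKO;Ptch+/- MBs lay just above GNPs without overlap, at least 1.17-fold higher, and did not pass (limma adjusted p = 0.192).

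A second, dimmer Phlda3 probe read 6.70, 6.25, 4.67 and 5.68 in Ptch+/- MBs, 4.24 to 4.48 in NdpKO;Ptch+/- MBs and 4.17 on all GNP arrays. The Ptch+/- MBs were again above every other array, with replicate 3 the lowest of them. On this probe Ptch+/- MBs were at least 2.51-fold higher than NdpKO;Ptch+/- MBs, which did not pass (limma adjusted p = 0.0774), and at least 2.51-fold higher than GNPs, which did (0.00976). Both calls on the main probe held when any array was left out. Without Ptch+/- MB replicate 3 the difference between tumors was -2.84 (limma adjusted p = 0.000213).

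The cell type marker lists differed between groups as well, and their part in the Phlda3 difference was not tested. The log2 summed signal of the 6 choroid plexus genes with a probe was 14.98, 13.18, 10.52 and 14.51 in Ptch+/- MBs, 10.88 to 12.52 in NdpKO;Ptch+/- MBs and 11.70 to 12.72 in GNPs. Of these 6 genes, 0 passed between tumors. Replicate 3 of the Ptch+/- MBs had the lowest choroid plexus sum of the 12 arrays and the lowest Phlda3 signal of the 4 Ptch+/- MBs on both probes (6.71 and 4.67). The highest Phlda3 signal was in replicate 2 on the main probe (7.74) and in replicate 1 on the second (6.70). GNPs had higher choroid plexus sums than replicate 3 and Phlda3 at background, but they differ from the tumors in tissue, age and purification. Whether the choroid plexus sums bear on Phlda3 was not tested. The 9 microglial and leukocyte markers summed to 12.08 to 13.17 in Ptch+/- MBs, 11.85 to 12.42 in NdpKO;Ptch+/- MBs and 9.51 to 9.93 in GNPs, with Itgam and Ptprc under the limit on every array. Of these markers 0 of 9 passed between tumors, and 6 of 9 were higher in each tumor group than in GNPs, where 10.3% and 7.69% of all genes were called higher. Granule progenitor markers summed to 15.80 to 15.86 in Ptch+/- MBs, 15.18 to 15.50 in NdpKO;Ptch+/- MBs and 15.30 to 15.37 in GNPs, although the probes for the defining genes Atoh1, Mycn and Gli1 were under the limit everywhere. Between tumors, 1 of 11 was lower in NdpKO;Ptch+/- MBs and 0 were higher, where 1.26% of all genes were called lower. Against GNPs, 4 were higher and 2 lower in Ptch+/- MBs, and 1 was higher and 1 lower in NdpKO;Ptch+/- MBs. The 10 endothelial markers summed to 11.08 to 11.65 in Ptch+/- MBs, 11.42 to 12.10 in NdpKO;Ptch+/- MBs and 12.05 to 12.54 in GNPs. Of these, 2 of 10 (Emcn and Robo4) were higher in NdpKO;Ptch+/- than in Ptch+/- MBs, where 0.808% of all genes were. Against GNPs, 6 of 10 were lower in Ptch+/- MBs and 1 of 10 in NdpKO;Ptch+/- MBs, where 10.9% and 7.98% of all genes were called lower. Among genes above background, 37.9% and 28.9% were called in either direction against GNPs. The shares against GNPs apply to every marker list here. The 7 mural markers summed to 8.58 to 10.24 in Ptch+/- MBs, 9.72 to 11.21 in NdpKO;Ptch+/- MBs and 9.81 to 10.17 in GNPs, with 0 of 7 passing between tumors. The 9 oligodendrocyte markers summed to 13.43 to 14.25, 13.57 to 14.12 and 13.60 to 14.50 in the same order, and in each tumor group 5 of 9, the myelin genes Mbp, Mog, Mag, Cnp and Mobp, were lower than in GNPs and 2 of 9, Olig1 and Pdgfra, were higher. The 8 astrocyte markers summed to 14.07 to 15.14, 14.00 to 14.54 and 13.90 to 14.07, with 3 of 8 higher in each tumor group than in GNPs and 1 of 8 lower in Ptch+/- MBs. For both of these lists 0 passed between tumors. The 8 granule neuron markers summed to 12.99 to 13.56, 12.68 to 13.35 and 14.32 to 14.55 in the same order, so the GNP arrays were above both tumors, and the 7 meningeal and fibroblast markers to 12.11 to 13.58, 12.31 to 13.09 and 13.58 to 13.87. Whether these sums bear on the differences of Mdm2, Ccng1 and Bbc3 from GNPs was not tested.

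**Figure D2:**
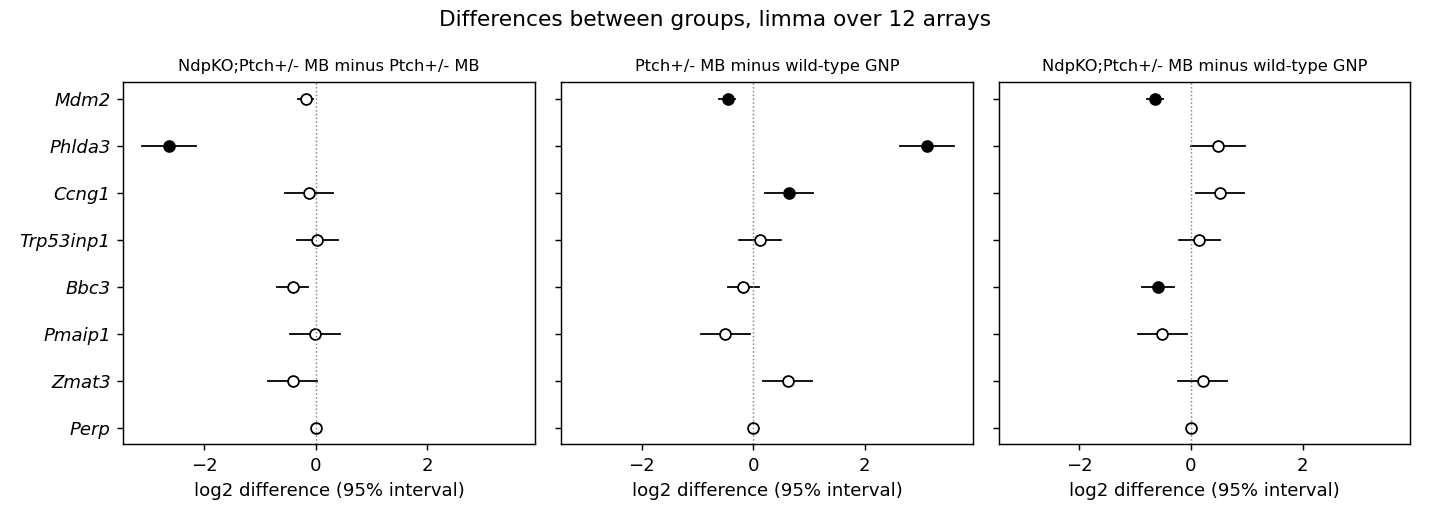
Log2 differences between groups (x axis) for the 8 genes, with 95% intervals from the limma fit over 12 arrays; filled points passed an adjusted p of 0.05. Phlda3 is -2.63 between the tumors and Mdm2 is below 0 in both comparisons with GNPs; the Phlda3, Pmaip1 and Perp points against GNPs involve groups at background.

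Ccng1, which encodes cyclin G1, a p53 target that acts with MDM2 to limit p53, read higher in both tumor groups than in GNPs, and the difference passed for Ptch+/- MBs. It was 9.22, 9.95, 9.50 and 9.65 in NdpKO;Ptch+/- MBs, 9.56, 10.11, 9.31 and 9.75 in Ptch+/- MBs, and 8.93, 9.17, 9.21 and 8.88 in GNPs. The tumor groups overlapped each other and neither overlapped GNPs. Ptch+/- MBs exceeded GNPs by 0.64 (SE 0.19, limma adjusted p = 0.0481), just inside the threshold, and NdpKO;Ptch+/- MBs by 0.53 (95% interval 0.10 to 0.96), which did not pass (0.113). The tumors differed by -0.11 (95% interval -0.54 to 0.32, limma adjusted p = 0.901).

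The Ccng1 call was the least stable of the 3 in Ptch+/- MBs. The other 2 Ccng1 probes differed from GNPs by 0.07 (limma adjusted p = 0.894) and -0.13 (0.892) in Ptch+/- MBs, and by -0.13 and -0.48 in NdpKO;Ptch+/- MBs. With the mean of its 3 probes the Ccng1 difference fell to 0.19 (limma adjusted p = 0.657). It passed in 3 of the 12 fits that left out an array, those without NdpKO;Ptch+/- MB replicate 1 or 2 or without Ptch+/- MB replicate 3, and in the other 9 the adjusted p was between 0.0651 and 0.116.

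**Figure D3:**
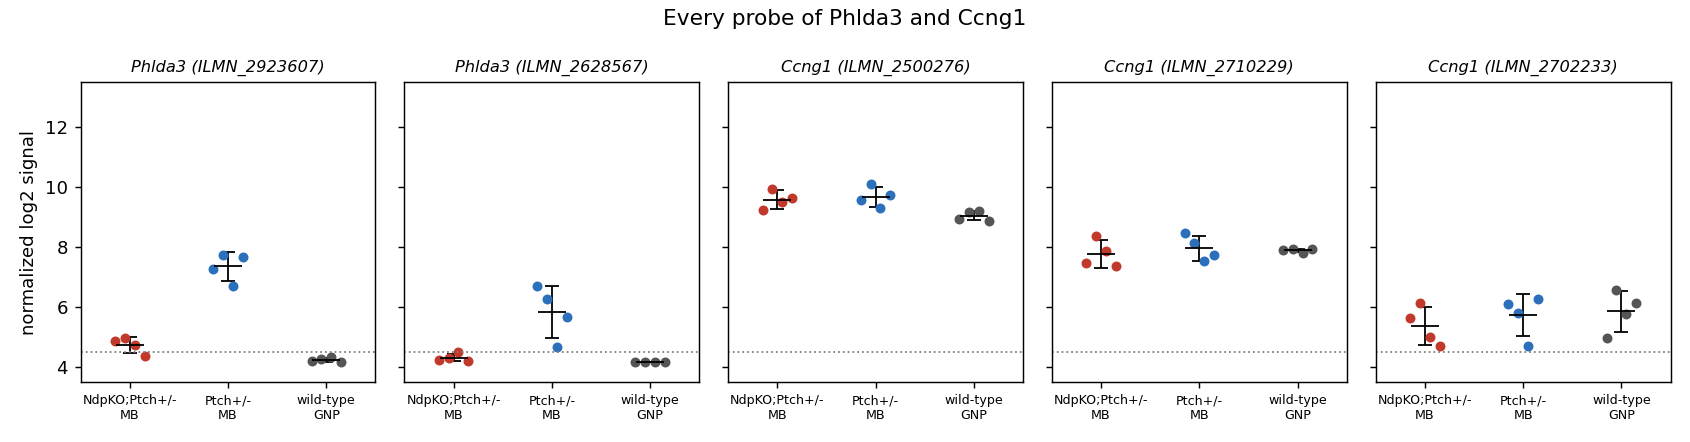
Normalized log2 signal (y axis) on each array for both Phlda3 probes and all 3 Ccng1 probes, with the mean and SD (n = 4 per group) and the background limit of 4.5 as a dotted line. Both Phlda3 probes place Ptch+/- MBs above the other groups, whereas the tumor difference from GNPs appears on the brightest Ccng1 probe and not on the other 2.

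Zmat3, which encodes a zinc finger RNA-binding protein, followed an order like that of Phlda3 at a smaller size. Its single probe read 9.73, 9.51, 8.99 and 9.22 in Ptch+/- MBs, 9.25, 8.61, 9.24 and 8.72 in NdpKO;Ptch+/- MBs, and 8.88, 8.85, 8.50 and 8.74 in GNPs. Ptch+/- MBs lay wholly above GNPs, while NdpKO;Ptch+/- MBs overlapped both. No Zmat3 difference passed: it was 0.62 (SE 0.20, limma adjusted p = 0.0597) for Ptch+/- MBs over GNPs, 0.21 (0.572) for NdpKO;Ptch+/- MBs over GNPs, and -0.41 (SE 0.20, 0.427) between tumors. The first of these passed in 5 of 22 other settings, among them the fit without Ptch+/- MB replicate 3 (limma adjusted p = 0.0371).

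Trp53inp1, whose protein amplifies p53 activity and takes part in autophagy, was bright in all 3 groups. It read 10.59, 10.86, 10.65 and 10.56 in NdpKO;Ptch+/- MBs, 10.80, 11.09, 10.29 and 10.36 in Ptch+/- MBs, and 10.35, 10.59, 10.49 and 10.61 in GNPs. The 3 ranges overlapped. Differences were 0.03 between tumors (95% interval -0.34 to 0.40) and 0.12 and 0.15 for the tumors over GNPs, with limma adjusted p = 0.976, 0.692 and 0.632. A second probe gave 0.39, 0.10 and 0.49 in the same order, and none passed.

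Among the BH3-only genes, which switch on BAX and BAK at mitochondria, Bbc3 was lower in tumors lacking Ndp than in GNPs. Bbc3 read 9.45, 9.36, 9.21 and 9.91 in NdpKO;Ptch+/- MBs, 9.87, 10.01, 9.79 and 9.89 in Ptch+/- MBs, and 10.14, 10.04, 10.01 and 10.08 in GNPs. All 4 NdpKO;Ptch+/- MBs were below all GNPs, and 3 of them were below every Ptch+/- MB, with replicate 4 inside the Ptch+/- range. Bbc3 was 1.5-fold lower in NdpKO;Ptch+/- MBs than in GNPs (log2 difference -0.59, SE 0.13, limma adjusted p = 0.014). Ptch+/- MBs differed from GNPs by -0.18 (limma adjusted p = 0.413). Between tumors the Bbc3 difference was -0.41 (95% interval -0.69 to -0.13, limma adjusted p = 0.182), and it passed only when NdpKO;Ptch+/- MB replicate 4 was left out (-0.55, limma adjusted p = 0.0119). The other 2 Bbc3 probes were at background.

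Pmaip1, the other BH3-only gene of the set, was at or near background. It read 5.42, 4.64, 4.33 and 4.43 in GNPs, so that 2 of 4 arrays were above the limit, and 4.15 to 4.31 on the 8 tumor arrays. Neither tumor group passed against GNPs (limma adjusted p = 0.118 for Ptch+/- MBs and 0.134 for NdpKO;Ptch+/- MBs). Both passed without GNP replicate 1, the brightest Pmaip1 array (limma adjusted p = 0.0336 and 0.0368).

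The regulators upstream of p53 were taken from a list of 22 genes with a probe. It covers kinases that activate p53, its ubiquitin ligases and deubiquitinases, its acetyltransferases and the ARF locus. Ppm1d and Foxo3, which belong to none of these classes, are also in it. Between tumors 1 of 22 was lower (Cdkn2a) and 0 were higher, or 4.55% changed against 2.07% of all genes and 4.24% of those above background, and the median difference was -0.05. Ptch+/- MBs had 4 higher and 4 lower than GNPs, or 36.4% against 21.2% of all genes and 37.9% of those above background. NdpKO;Ptch+/- MBs had 2 higher and 3 lower, or 22.7% against 15.7% and 28.9%. The list percentages are of all 22 genes, of which 17, 17 and 16 were above background in the same order. They are therefore not on the basis of the shares above background. The medians of 0 and -0.01 equalled or lay next to the median of 0 for all genes. Mdm4, the close relative of Mdm2 that also inhibits p53, had group means of 4.34 to 4.43, near background.

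Cdkn2a, which encodes both the p53 activator ARF and the kinase inhibitor INK4a, was, like Phlda3, highest in Ptch+/- MBs. It read 8.35, 8.29, 6.03 and 8.92 in Ptch+/- MBs, 4.21, 5.06, 4.27 and 4.79 in NdpKO;Ptch+/- MBs, and 4.12 or 4.13 in GNPs. Every Ptch+/- MB was above every other array, and 2 of 4 NdpKO;Ptch+/- MBs were above background. Cdkn2a was lower in NdpKO;Ptch+/- than in Ptch+/- MBs (log2 difference -3.32, SE 0.53, limma adjusted p = 0.0192) and at least 10.5-fold higher in Ptch+/- MBs than in GNPs (limma adjusted p = 0.00106). The call between tumors was kept in 8 of 12 fits that left out an array and lost, with adjusted p between 0.0501 and 0.0529, without NdpKO;Ptch+/- MB replicate 1 or 3 or Ptch+/- MB replicate 1 or 2. A second probe fell short between tumors (limma adjusted p = 0.0674). Which of the ARF and INK4a transcripts the probes read was not determined here.

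Both tumor groups had more Atm, the kinase that phosphorylates p53 after DNA breaks, than GNPs. The log2 differences were 1.12 for Ptch+/- MBs and 0.97 for NdpKO;Ptch+/- MBs (SE 0.10, limma adjusted p = 5.25e-05 and 0.000187). Ppm1d, a p53-induced phosphatase that switches the response off, was lower in both (log2 differences -0.69 and -0.71, SE 0.07, limma adjusted p = 0.000232 and 0.000268). Neither gene differed between tumors beyond the spread (Atm -0.15, 95% interval -0.37 to 0.07, and Ppm1d -0.02, -0.19 to 0.14). Ep300, an acetyltransferase for p53, was higher in Ptch+/- MBs than in GNPs by 0.61 (limma adjusted p = 0.0147), and Kat5, which encodes the acetyltransferase TIP60, was lower (-0.62, 0.00424). Usp7, the deubiquitinase of MDM2 and p53, was lower in both tumors (-0.19, 0.0168, and -0.27, 0.00396), but its other 2 probes differed by -0.11 to 0.20 and none of those differences passed. Prkdc, encoding the DNA-dependent protein kinase, was at least 1.45-fold higher in NdpKO;Ptch+/- MBs than in GNPs (limma adjusted p = 0.00856), and the transcription factor gene Foxo3 was lower there (-1.74, 0.0208, kept in 8 of 12 fits that left out an array). Chek2 and Cop1, which complete the count for Ptch+/- MBs, passed in only 2 and 3 of the 12 fits that left out an array.

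Of 45 further p53 targets with a probe, 1 was lower between tumors (Sesn2) and 0 were higher, or 2.22% against 2.07% of all genes and 4.24% of those above background. Against GNPs, 7 were higher and 8 lower in Ptch+/- MBs, or 33.3% against 21.2% of all genes and 37.9% of those above background. In NdpKO;Ptch+/- MBs 5 were higher and 7 lower, or 26.7% against 15.7% and 28.9%. The list therefore moved in both directions in either tumor, with medians of -0.02, 0.01 and 0. Its percentages are of all 45 genes, of which 33, 33 and 32 were above background in the same order. They are not on the basis of the shares above background. Pidd1, which encodes the scaffold of the caspase-2 activating complex, was higher in Ptch+/- and NdpKO;Ptch+/- MBs than in GNPs by 2.17 and 1.77 (limma adjusted p = 0.000469 and 0.0021). Polk, a translesion DNA polymerase gene, was higher by 2.42 and 2.00 (0.000648 and 0.00266), and Siva1, a proapoptotic gene, by 0.48 and 0.32 (0.000932 and 0.0107). Ei24 was higher by 0.18 and 0.25 (0.000333 and 6.77e-05), although its second probe did not pass in either tumor. In the opposite direction, Plk2, a kinase gene, was lower, with differences of -2.97 and -2.90 (0.00115 and 0.00178). Fbxw7, a ubiquitin ligase subunit gene, was lower at -1.27 and -1.39 (0.00292 and 0.00243), Ddit4, an inhibitor of mTORC1, at -1.03 and -0.93 (0.0011 and 0.00274), and the early response gene Ier3 at -1.10 and -1.96 (0.016 and 0.000979).

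Sesn2, which encodes the stress sensor sestrin 2, was at background in all NdpKO;Ptch+/- MBs (4.22, 4.34, 4.35 and 4.24). It read 7.35, 5.32, 7.78 and 6.73 in Ptch+/- MBs and 6.82, 7.10, 6.39 and 6.04 in GNPs, so neither group overlapped NdpKO;Ptch+/- MBs. Sesn2 was at least 4.91-fold lower in NdpKO;Ptch+/- than in Ptch+/- MBs (limma adjusted p = 0.0357) and at least 4.26-fold lower than in GNPs (0.0101), while Ptch+/- MBs differed from GNPs by 0.21 (0.827). The call between tumors was kept in only 1 of 12 fits that left out an array, the one without Ptch+/- MB replicate 2 (limma adjusted p = 0.00311), and otherwise ranged up to 0.0849. The 2 other Sesn2 probes were at background on every array.

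Cdkn1a, the p21 gene and the best known p53 target for cell cycle arrest, passed in no comparison and is named here after its values were seen. It read 11.12, 10.49, 9.03 and 11.55 in Ptch+/- MBs, 8.97, 9.18, 8.68 and 8.41 in NdpKO;Ptch+/- MBs, and 9.93, 10.37, 9.63 and 9.64 in GNPs. NdpKO;Ptch+/- MBs lay wholly below GNPs, and Ptch+/- MBs were spread widely, with replicate 3 the lowest. The difference between tumors was -1.74 (SE 0.48, limma adjusted p = 0.133), and those from GNPs were 0.65 (0.424) for Ptch+/- MBs and -1.08 (0.192) for NdpKO;Ptch+/- MBs. The other 2 Cdkn1a probes gave -2.25 (0.144) and -2.98 (0.115) between tumors. Replicate 3 was the lowest of the 4 Ptch+/- MBs for Phlda3, Ccng1, Trp53inp1, Bbc3, Zmat3, Cdkn2a and Cdkn1a, but not for Mdm2, and it was the highest for Sesn2.

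**Figure D4:**
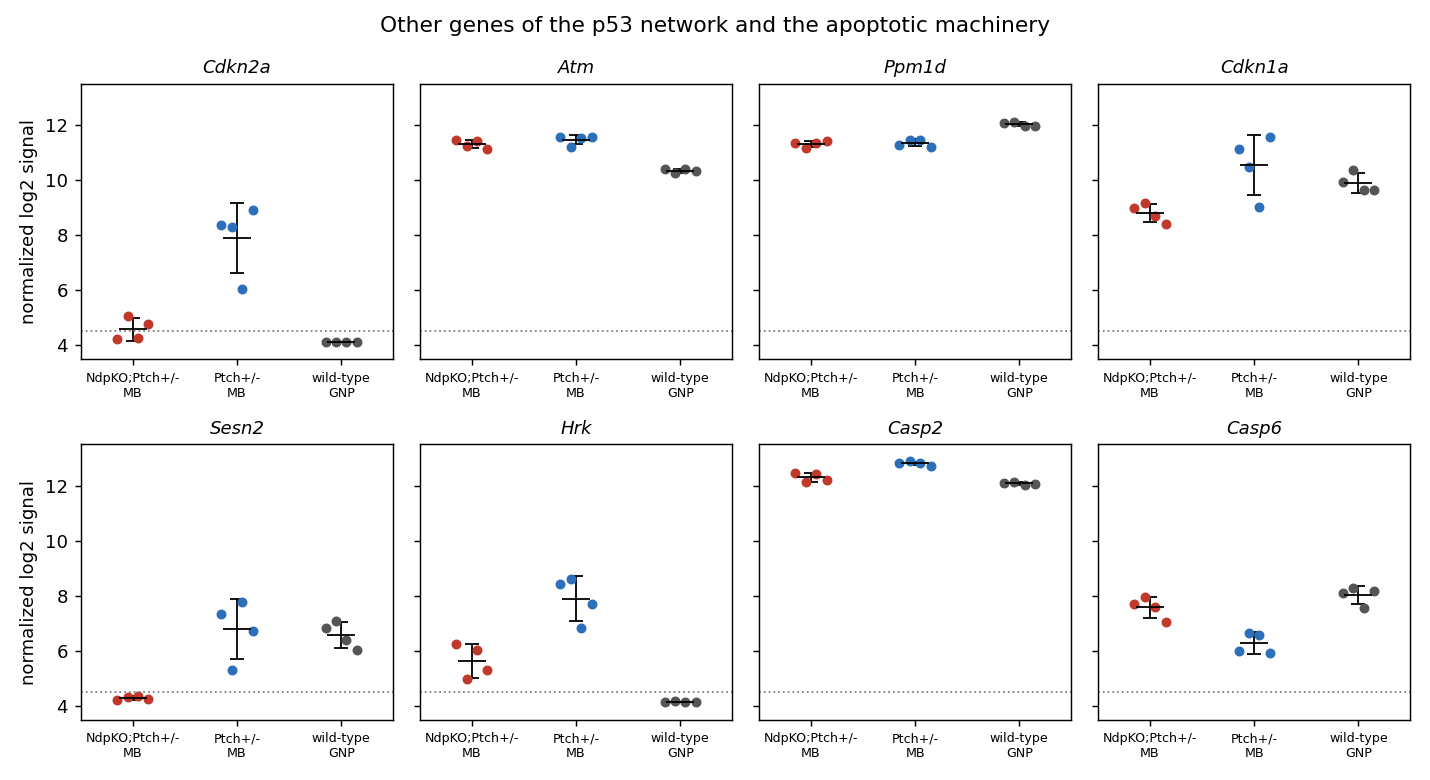
Normalized log2 signal (y axis) on each array for 8 further genes of the p53 network and the death machinery, with the mean and SD (n = 4 per group) and the background limit of 4.5 as a dotted line. Cdkn2a and Hrk are near or at background in GNPs and highest in Ptch+/- MBs, Sesn2 is at background only in NdpKO;Ptch+/- MBs, and Casp2 and Casp6 differ between the tumors in opposite directions.

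Downstream of these targets, 26 genes of the BCL2 family, the apoptosome and the caspases had a probe. Between tumors 1 was higher (Casp6) and 2 were lower (Hrk and Casp2) in NdpKO;Ptch+/- MBs, or 11.5% against 2.07% of all genes and 4.24% of those above background. In Ptch+/- MBs 5 were higher and 3 lower than GNPs (30.8% against 21.2% of all genes and 37.9% of those above background), and in NdpKO;Ptch+/- MBs 4 were higher and 3 lower (26.9% against 15.7% and 28.9%). The medians of this list were 0.01, 0.01 and 0.11. Its percentages are of all 26 genes, of which 21 were above background in each comparison. They are not on the basis of the shares above background. Bik was counted as lower in both tumors but read 4.12 to 4.25 on every array, at background.

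Hrk, a BH3-only gene of neurons, read 8.43, 8.62, 6.83 and 7.70 in Ptch+/- MBs, 6.26, 4.97, 6.04 and 5.29 in NdpKO;Ptch+/- MBs and 4.16 or 4.17 in GNPs. The 3 groups did not overlap. Hrk was at least 10.5-fold higher in Ptch+/- MBs (limma adjusted p = 0.000215) and at least 2.2-fold higher in NdpKO;Ptch+/- MBs (0.0402) than in GNPs, and lower in NdpKO;Ptch+/- than in Ptch+/- MBs (log2 difference -2.26, SE 0.40, 0.0311). The call between tumors was kept in 2 of 12 fits that left out an array, those without NdpKO;Ptch+/- MB replicate 1 or Ptch+/- MB replicate 3, and the smaller difference from GNPs in 4 of 12 (limma adjusted p from 0.0146 to 0.109).

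The initiator caspase gene Casp2 was the steadiest of the tumor differences in this list. It read 12.46, 12.13, 12.44 and 12.22 in NdpKO;Ptch+/- MBs, 12.83, 12.88, 12.83 and 12.73 in Ptch+/- MBs and 12.03 to 12.14 in GNPs. Casp2 was lower in NdpKO;Ptch+/- than in Ptch+/- MBs (log2 difference -0.50, SE 0.07, limma adjusted p = 0.0125), a call kept in 12 of 12 fits that left out an array, and its second probe differed by -1.35 (0.0472). Ptch+/- MBs exceeded GNPs by 0.73 (limma adjusted p = 0.000121). The effector caspase gene Casp6 went the other way, at 7.71, 7.95, 7.61 and 7.05 in NdpKO;Ptch+/- MBs, 5.98, 6.65, 6.57 and 5.92 in Ptch+/- MBs and 7.55 to 8.27 in GNPs. Casp6 was higher in NdpKO;Ptch+/- than in Ptch+/- MBs by 1.30 (SE 0.25, limma adjusted p = 0.0402), a call kept in 3 of 12 fits that left out an array (without NdpKO;Ptch+/- MB replicate 4, Ptch+/- MB replicate 2 or GNP replicate 3). Its second probe differed by 1.22 (limma adjusted p = 0.00383), and Ptch+/- MBs were below GNPs on the main probe (-1.75, 0.00116).

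Apaf1, the apoptosome core and itself a p53 target counted in both lists, was higher in Ptch+/- and NdpKO;Ptch+/- MBs than in GNPs by 0.89 and 0.80 (limma adjusted p = 0.00129 and 0.00321), and all 3 of its probes passed in both. Casp8, the initiator caspase of death receptors, was lower in both, with differences of -1.18 and -1.56 (0.0144 and 0.00465). In NdpKO;Ptch+/- MBs the BH3-only gene Bad was higher than in GNPs by 0.78 (0.0124) and Birc2, a caspase inhibitor family gene, by 0.24 (0.0301), although Birc2 passed in 6 of 12 fits that left out an array and not with the mean of its probes (0.57). Bcl2 and Htra2, which complete the genes higher in Ptch+/- MBs, differed from GNPs by 1.46 (limma adjusted p = 0.018) and 0.58 (0.0223), and Bcl2l1, which completes those lower in NdpKO;Ptch+/- MBs, by -0.66 (0.0436, kept in 4 of 12 fits). When only the arrays of the tumor groups entered the fit, Phlda3 still passed between them (limma adjusted p = 0.0335), whereas Cdkn2a (0.146), Sesn2 (0.164), Hrk (0.18), Casp2 (0.107) and Casp6 (0.155) did not.

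Proliferation genes summed to 14.64 to 15.00 in NdpKO;Ptch+/- MBs, 14.75 to 14.98 in Ptch+/- MBs and 14.51 to 14.94 in GNPs on the log2 scale, with Ccnb2 and Bub1 under the limit everywhere. Of 15 with a probe, 1 was lower between tumors, the replication helicase gene Mcm2 (-0.77, SE 0.09, limma adjusted p = 0.00661), and 0 were higher (6.67% against 2.07% of all genes). Against GNPs, Ptch+/- MBs had Mcm2 and Mcm6 higher and Tyms, the thymidylate synthase gene, lower (20% against 21.2%), and NdpKO;Ptch+/- MBs had Mcm6 alone higher (6.67% against 15.7%). The Tyms call was kept in 6 of 12 fits that left out an array and lost without Ptch+/- MB replicate 2, 3 or 4 or GNP replicate 1, 2 or 4 (limma adjusted p from 0.0582 to 0.0804). A second Tyms probe was also lower in Ptch+/- MBs than in GNPs (-1.04, limma adjusted p = 0.00217), and its remaining probes were at background. With the mean of its probes Mcm6 passed in neither (limma adjusted p = 0.93 and 0.349).

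The genes most like Phlda3 over the 12 arrays, among 8922 genes above background on at least 4 arrays, were Osmr (Pearson r = 0.988), Rbm47 (0.983) and H2-Ab1 (0.976). Their mean signals were 6.91, 6.06 and 8.45 in Ptch+/- MBs, 4.62, 4.46 and 4.23 in NdpKO;Ptch+/- MBs and 4.26, 4.24 and 4.19 in GNPs. All 3 were thus highest in Ptch+/- MBs and at or near background in the other groups. Mdm2 was most like Slc35g2 (0.964), Sgk1 (0.957) and Irf1 (0.953), which were highest in GNPs and lowest in NdpKO;Ptch+/- MBs. Ccng1 was most like AI413582 (0.906), Spata6 (0.904) and Ugt1a10 (0.875), with lower maximum likeness than for the other 2 genes. These values describe arrays that fall into 3 groups and carry no test.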

How the data were processed

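Total RNA from MBs and GNPs was hybridised to Illumina MouseWG-6 v2.0 BeadChips. The authors corrected the background of the BeadStudio tables, quantile-normalized them and took logs in 1 step, limma's neqc, and the deposited values are log2 signals for 45281 probes. Slide and scan are not given in the sources used here. Probes were named from the GEO platform annotation: 34885 carry 1 symbol, 18 several and 10378 none. Members and lists were chosen with earlier results of these data known, as was the background limit of 4.5.

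A group-means model over the 12 arrays was fitted with limma 3.58.1 in R 4.3.3 and checked on simulated data; p-values were adjusted by Benjamini-Hochberg over all probes. Where every array of the dimmer group was under the limit, folds are bounds (at least N-fold) computed against it. Named genes were the members, up to 5 called genes with the smallest p per list and comparison, and the 3 genes most like Mdm2, Phlda3 and Ccng1; the choice of Mdm4, Cdkn1a, Chek2, Cop1, Bcl2, Htra2 and Bcl2l1 followed a look at their values. The number of arrays limits precision. Alternatives covered normalization, filters, variance prior, array weights, arrays fitted, probe choice, thresholds, a replicate block and leaving out each array. No pairing of samples by the numbers in titles was seen: r of same-numbered arrays' deviations ran from -0.21 to 0.14 over 12 pairs. With 4 arrays in each group, this check cannot exclude a weak shared effect.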

Additional observations from a re-analysis of the deposited data

How the results depend on the processing

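The count of p53 genes that differed between tumors was 1 in the fit reported and 1 to 2 when each array was left out in turn, the second being Bbc3 without NdpKO;Ptch+/- MB replicate 4. For Ptch+/- MBs against GNPs the count was 3, it was 1 (Phlda3) when a log2 difference above 1 was also required, and it ran from 2 to 4 over the arrays left out. For NdpKO;Ptch+/- MBs against GNPs it was 2, it was 1 (Mdm2) at an adjusted p under 0.01 and 0 with the log2 filter, and it ran from 2 to 3 over the arrays left out. With the replicate number as a block the counts were 1, 3 and 2 in the same order, and 1 of 12 array pairs exceeded r = 0.1, so the block is only an alternative; under it Cdkn2a (limma adjusted p = 0.0527), Sesn2 (0.11), Hrk (0.0996), Casp2 (0.0524) and Casp6 (0.0805) no longer passed between tumors. Over 525 values of single p53 genes under an alternative, 498 kept the call, 17 lost a call and 10 gained one. Where the reported fit or the alternative passed, 0 reversed direction. Differences that passed in neither fit could change sign, as Ccng1 did in NdpKO;Ptch+/- MBs against GNPs (0.53 as reported, down to -0.03). Phlda3 passed between tumors and against GNPs in Ptch+/- MBs in 22 of 22 alternatives. Ccng1 in Ptch+/- MBs passed in 9 of 22 (limma adjusted p from 0.0172 to 0.657), and Zmat3 in 5 of 22. Ccng1 in NdpKO;Ptch+/- MBs passed only with dim probes left out (0.0492), and Perp passed against GNPs under median centring (0.0162) although at background. The causes were not tested. Centring moved the median of expressed probes by at most 0.012. Signal near background limits Phlda3 in NdpKO;Ptch+/- MBs, Pmaip1, Mdm4 and Perp, for which differences are compressed.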
